A study of Mus musculus with 66 samples.

Results

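The miR-183, miR-96 and miR-182 cluster is a group of 3 microRNA (miRNA) hairpins that lie next to each other in the genome. Its 6 mature strands were followed here in the plasma of C3H mice with and without hepatocellular carcinoma (HCC). The strands were chosen by name, with earlier HCC and non-HCC results of these samples known. Of the 6, mmu-miR-182-5p, mmu-miR-182-3p, mmu-miR-183-5p, mmu-miR-183-3p and mmu-miR-96-5p had an entry in the C3H table of 1826 miRNAs. The remaining strand, mmu-miR-96-3p, had none, so 5 members were analysed and all 5 passed the filter on low counts.

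Cell-free miRNA was counted in plasma of 13 male C3H mice, 8 labelled HCC and 5 labelled non-HCC by histology. All 13 carry the label of more than 12 months after radiation, and no age, transgene or other agent is given for them. The study's methods describe the HCC group as a mixture of spontaneous and radiation-induced tumors. The radiation label of all 13 mice therefore does not show that each of them was irradiated. The labels do not say which mouse had which kind of tumor, so neither tumor origin nor exposure was compared. Serial plasma samples of a second cohort, F2 mice, were not analysed here, since the names of their count columns match no label, and co-variation of the members over that cohort was therefore not examined.

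In the nucleus, a miRNA hairpin is cut from a longer transcript, and in the cytoplasm it is trimmed to a short duplex of a 5p and a 3p strand. One strand is usually kept by an Argonaute protein and pairs with target mRNAs mainly through its seed, bases 2 to 8. The 3 hairpins of the cluster are transcribed together. The cluster is best known from sensory organs, the retina and the hair cells of the inner ear, and its members are also studied in epithelial tumors, liver tumors among them. Plasma carries miRNA shed by many tissues, bound to protein or within vesicles.

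The mature strands of the cluster are shown because their seeds define how alike they are as regulators. The sequences are from RefSeq, written 5′ to 3′, with the seed in capitals.
mmu-miR-182-5p: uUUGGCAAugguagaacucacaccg
mmu-miR-96-5p: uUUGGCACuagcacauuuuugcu
mmu-miR-183-5p: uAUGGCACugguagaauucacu
mmu-miR-182-3p: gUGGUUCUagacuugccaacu
mmu-miR-183-3p: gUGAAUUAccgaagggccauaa
mmu-miR-96-3p: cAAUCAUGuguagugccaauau

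Positions were counted from 1 at the 5′ end. The seeds of miR-182-5p and miR-96-5p differed by 1 base, A8C. Those of miR-96-5p and miR-183-5p also differed by 1 base, U2A, and those of miR-182-5p and miR-183-5p by both. No pair of members had the same seed. Outside the cluster, mmu-miR-1271-5p has the seed of miR-96-5p and no entry in the table, and mmu-miR-3475-5p has the seed of miR-96-3p and was listed at 0 to 22 molecules per mouse.

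In the GRCm38 assembly, the build the study aligned to, the hairpins lie on the minus strand of chromosome 6. Mir182 spans 30165918 to 30165992, Mir96 spans 30169446 to 30169551 and Mir183 spans 30169668 to 30169737. Between Mir182 and Mir96 lie 3453 bases, and between Mir96 and Mir183 lie 116 bases. No hairpin overlapped an exon or intron of another annotated gene. The nearest annotated neighbour was the long noncoding RNA Rncr4, on the opposite strand, which begins 3156 bases from Mir183.

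The unit throughout is the unique molecular index (UMI), a tag that counts each captured RNA molecule once. The 8 HCC libraries held between 9513136 and 14247488 miRNA UMIs, and the 5 non-HCC libraries between 10467560 and 13962539. The lowest entry above 0 is 10 UMIs, and a 0 therefore stands for anything below 10. Levels are the log2 of (UMIs + 1) over a scale set from the mean UMI count of 2 synthetic spike-ins, UniSP2 and UniSP4. This scale spanned 0.763 to 1.53 over the non-HCC mice and 0.347 to 1.96 over the HCC mice. It was lowest in HCC mice 2 (0.366) and 5 (0.347) and highest in HCC mice 3 (1.83) and 7 (1.96). A low scale raises a mouse's level, and a share or ratio of UMIs within a mouse does not depend on it.

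The same pairs of libraries stood close to each other. Over the 809 miRNAs with few UMIs, HCC mice 3 and 7 gave a mean chi-square of 1.40 per miRNA, where sampling noise alone gives 1. HCC mice 2 and 5 gave 1.44 over 580 miRNAs, and the next closest pair of the series, non-HCC mice 3 and 4, gave 2.94. Over all miRNAs the values were 63.7 and 58.2, well above sampling noise and above the 31.9 of HCC mice 1 and 6, the closest pair by that measure. That measure grows with the number of UMIs, so it cannot tell whether libraries of a pair are independent. The libraries were kept as separate samples because they are labelled as separate mice. Counts of mice and permutation tests treat them as independent unless they are summed. Nothing in the labels says that these mice are related, and the 5p fold changes, the share and ratios of the 5p strands and the relations with marker lists are also given with each pair summed. The labels do not say either whether the plasma samples were handled together.

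Whether the cluster differed in plasma between HCC and non-HCC mice was asked first of the 5p strands, by far the more abundant ones. All 3 were higher in most HCC mice, and 2 HCC mice went the other way. For each of miR-182-5p, miR-183-5p and miR-96-5p, 6 of 8 HCC mice lay above every non-HCC mouse. HCC mice 3 and 7 lay below every non-HCC mouse. Of 1452 miRNAs tested, 13.0% had at least 6 of 8 HCC mice above every non-HCC mouse.

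MiR-182-5p had the most UMIs of any member in every mouse. It was counted at 531 to 13319 UMIs in HCC mice, with a median of 3396.5, and at 551, 581, 447, 722 and 608 UMIs in the 5 non-HCC mice. On the spike-in scale its log2 level was 8.17 to 14.44 in HCC mice, with a median of 13.14, and 8.49, 8.65, 8.40, 9.18 and 9.64 in non-HCC mice. The means were 11.95 ± 2.50 (SD, n = 8) and 8.87 ± 0.52 (SD, n = 5), a difference of 3.08, or 3.51 with the close libraries summed. The spread was wide among HCC mice and narrow among non-HCC mice. HCC mice 3 and 7, at 8.18 and 8.17, were just below the lowest non-HCC mouse, and HCC mouse 8, the next lowest, was at 11.25.

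MiR-183-5p followed the same order of groups at a lower level. It was counted at 277 to 9631 UMIs in HCC mice, with a median of 2236.5, and at 404, 420, 416, 604 and 426 UMIs in non-HCC mice. Its log2 level was 7.16 to 13.98 in HCC mice, with a median of 12.33, and 8.05, 8.19, 8.30, 8.92 and 9.13 in non-HCC mice. Both groups again differed in spread, with means of 11.15 ± 2.60 (SD, n = 8) and 8.52 ± 0.48 (SD, n = 5). HCC mice 3 (7.25) and 7 (7.16) lay farther below the lowest non-HCC mouse, at 8.05, than they did for miR-182-5p.

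MiR-96-5p, the strand whose seed mutations cause hearing loss in mice and humans, was the scarcest of the 5p strands. It was counted at 15 to 443 UMIs in HCC mice, with a median of 162.5, and at 27, 44, 33, 34 and 48 UMIs in non-HCC mice. Its log2 level was 3.03 to 9.17 in HCC mice, with a median of 8.37, and 4.19, 4.96, 4.68, 4.81 and 6.01 in non-HCC mice. The means were 7.10 ± 2.47 (SD, n = 8) and 4.93 ± 0.67 (SD, n = 5). With 15 and 21 UMIs, the values of HCC mice 7 and 3 carry the largest relative counting error of any 5p value here.

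The 3p strands were near the lower limit of the table. MiR-182-3p was listed above 0 in 4 of 8 HCC mice, at 17, 27, 11 and 16 UMIs in HCC mice 1, 4, 6 and 8, and in 1 of 5 non-HCC mice, at 12 UMIs. MiR-183-3p was listed above 0 in 6 of 8 HCC mice, at 10 to 103 UMIs, and in 3 of 5 non-HCC mice, at 16, 12 and 13 UMIs. HCC mouse 4 held the highest value of both 3p strands, 27 and 103 UMIs. Many of these entries are 0, and a log2 level of an entry of 0 reflects the scale of that mouse alone.

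**Figure D1:**
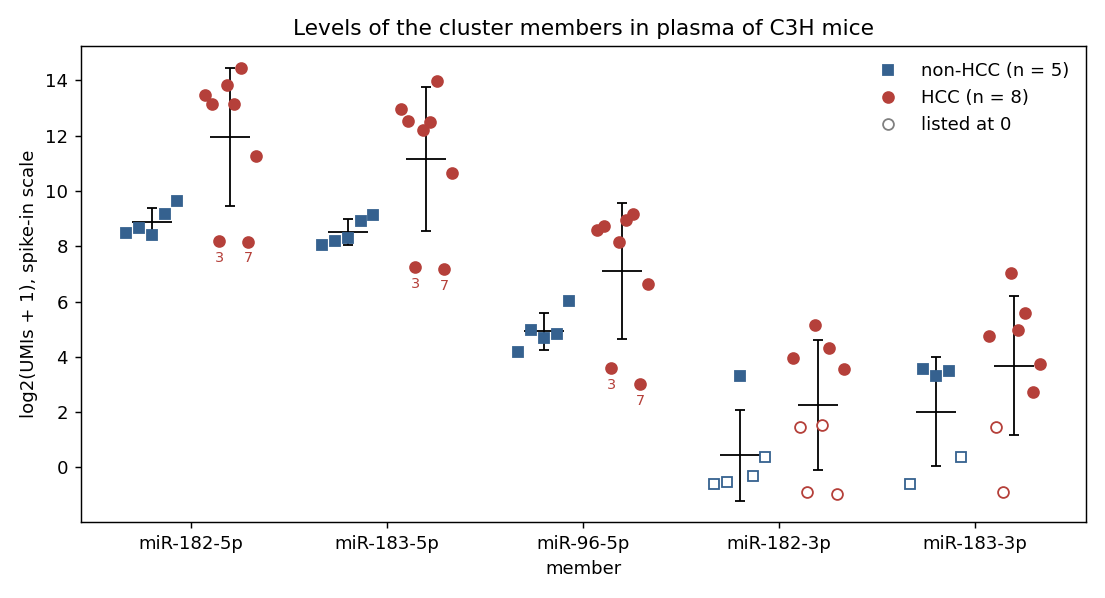
Each point is 1 mouse: the log2(UMIs + 1) level on the spike-in scale (vertical axis) of each analysed member (horizontal axis), with squares for the 5 non-HCC and circles for the 8 HCC mice, open symbols for entries of 0, and black lines for the mean ± SD. HCC mice 3 and 7, marked by their numbers, lie below the non-HCC mice in the 5p strands, while the other 6 HCC mice lie above them.

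A test across all miRNAs placed these values among the rest. Because the members were proposed with this contrast known, their fold changes are a description and carry no p. By edgeR's quasi-likelihood test on the spike-in scale, the log2 fold change of HCC over non-HCC was 4.13 (SE 0.94) for miR-182-5p, 3.79 (SE 0.94) for miR-183-5p and 3.12 (SE 0.89) for miR-96-5p. For miR-182-3p it was 2.36 (SE 1.94) and for miR-183-3p 2.32 (SE 1.22). MiR-182-3p passed the filter with exactly 5 mice, 4 HCC and 1 non-HCC, so it was tested mainly through the HCC mice. The first 3, the 5p strands, were past an adjusted p of 0.05, so 3 of 5 members were called higher, beside 7.51% of all miRNAs tested (109 of 1452). The median log2 fold change over the members was 3.12, and over all tested miRNAs it was 0.78.

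The members were high but not extreme in that distribution. Of the tested miRNAs, 95.9% had a lower log2 fold change than miR-182-5p, 95.2% a lower one than miR-183-5p and 92.7% a lower one than miR-96-5p. For the 3p strands the values were 85.9% (miR-182-3p) and 85.4% (miR-183-3p).

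Setting the scale from the miRNAs themselves, by the trimmed mean of M values (TMM), moved the median of all tested miRNAs to 0.17. Members kept their direction, with log2 fold changes of 3.38, 3.04 and 2.38 for miR-182-5p, miR-183-5p and miR-96-5p and of 1.48 and 1.43 for miR-182-3p and miR-183-3p. Again 3 of 5 members were past the threshold, beside 7.37% of all miRNAs. Without HCC mice 3 and 7, a choice made after seeing the data, the log2 fold changes of the 5p strands were 4.53, 4.19 and 3.53. With HCC mice 2 and 5 summed, and 3 and 7 summed, they were 4.34, 3.98 and 3.21, and the same 3 members were past the threshold in both cases. The calls depended on single mice, most of all in the small non-HCC group. Without HCC mouse 2 or 5, or non-HCC mouse 4, miR-96-5p was not past the threshold. Without non-HCC mouse 1, 2 or 3, of the members only miR-182-5p was past the threshold, although the log2 fold changes stayed at 3.68 to 3.72 for miR-183-5p and 2.96 to 3.10 for miR-96-5p. Limma on log2 values called 0 of 5, with 2 at an unadjusted p under 0.05, where edgeR and DESeq2 called 3.

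**Figure D2:**
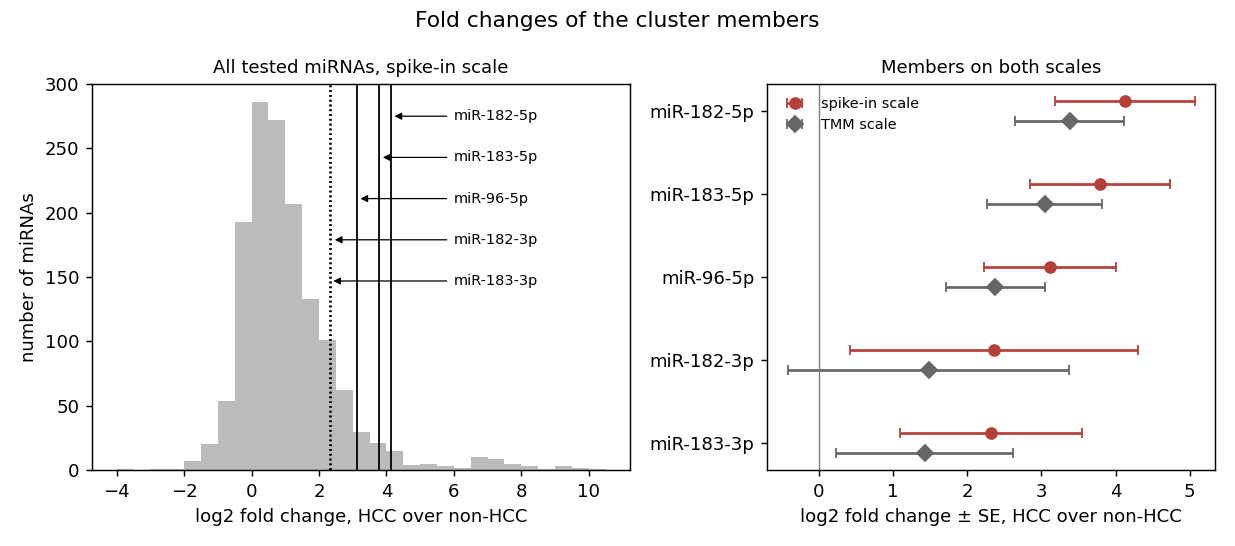
Left, the number of miRNAs (vertical axis) by log2 fold change of HCC over non-HCC (horizontal axis, spike-in scale) for all tested miRNAs, with vertical lines for the members, solid for 5p and dotted for 3p. Right, the log2 fold change ± SE of each member on the spike-in scale (circles) and the TMM scale (diamonds). All 5 members lie to the right of the median of 0.78, and each is lower on the TMM scale.

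As a share of all miRNA UMIs, which uses no spike-in, the 5 members together took 928 ± 932 UMIs of every 1000000 in HCC mice (SD, n = 8, range 73.7 to 2397). In non-HCC mice they took 86.7 ± 10.2 (SD, n = 5, range 76.5 to 101.5). Among the 1826 miRNAs ranked by mean share, miR-182-5p was at place 87 in HCC and 194 in non-HCC mice. MiR-183-5p was at places 108 and 211 and miR-96-5p at places 294 and 528. On this scale, and on the TMM scale, the values of HCC mice 3 and 7 were not below the non-HCC range for miR-182-5p (0 of 8 HCC mice) and were below it for miR-183-5p and miR-96-5p (2 of 8). In plasma, more cells that shed a miRNA, more shed per cell and slower clearance cannot be told apart.

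The make-up of the cluster leaned more to miR-182-5p in HCC mice, by a small margin in most of them. It did so in the 2 HCC mice whose levels were low as well. Of the cluster's UMIs in a mouse, miR-182-5p made up 57.1% to 74.0% (HCC) and 48.6% to 56.2% (non-HCC), so the groups did not overlap. This pattern was picked after its values were seen and shares its contrast with the choice of members, so it was given no test. In level, a different quantity, 1.52% of all tested miRNAs had all 8 HCC mice above every non-HCC mouse. How often a share within a set of miRNAs separates the groups was not counted, so the share has no background. The margin was small: the lowest HCC share, in mouse 6, was 57.1% (95% exact binomial interval 56.4 to 57.7), and the highest non-HCC share, in mouse 5, was 56.2% (53.2 to 59.2). HCC mice 3 and 7 were at 64.1% (60.7 to 67.3) and 64.8% (61.5 to 67.9), above the interval of every non-HCC mouse. Summed, they gave 64.4%, and HCC mice 2 and 5 summed gave 59.03%. HCC mouse 4 was also clear, at 73.4 to 74.7. The intervals of HCC mice 1, 2, 5, 6 and 8 overlapped those of non-HCC mice 1 and 5. All intervals cover counting error only.

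**Figure D3:**
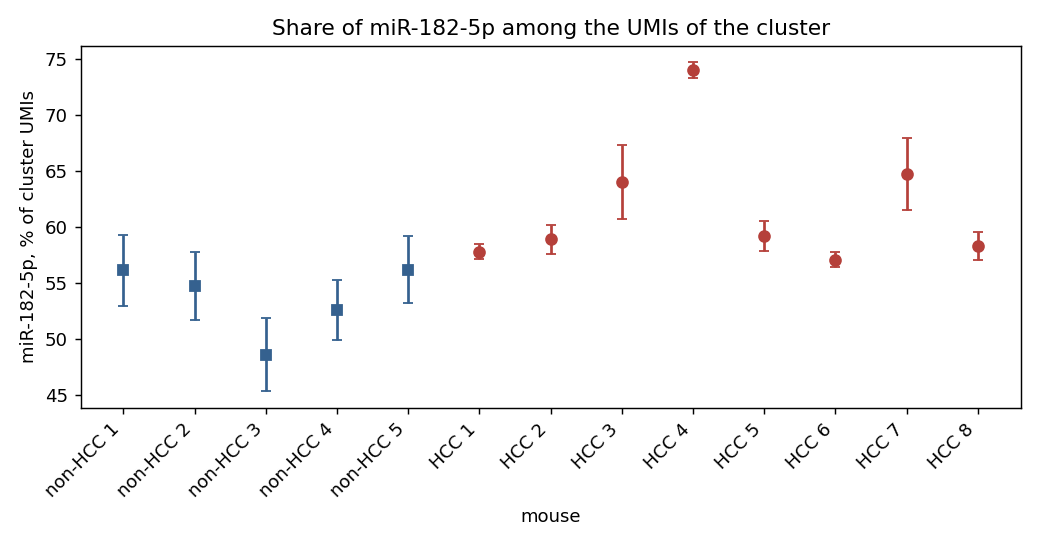
The percentage of the cluster's UMIs that were miR-182-5p (vertical axis, from 45 to 75) in each mouse (horizontal axis), with squares for non-HCC and circles for HCC mice and bars for 95% exact binomial intervals. The points of all 8 HCC mice lie above those of the 5 non-HCC mice, though some bars overlap. HCC mouse 4 is highest, at 74.0%.

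Ratios between the 5p strands were compared next. Capture and ligation differ between sequences, so a ratio compares mice and not the true amounts of the strands. The ratio of miR-182-5p to miR-183-5p was 1.38 to 3.13 with HCC and 1.07 to 1.43 without, and 7 of 8 HCC mice exceeded every non-HCC mouse. HCC mouse 4 stood apart at 3.13, and the next highest were HCC mice 7 (2.01) and 3 (1.92). MiR-182-5p to miR-96-5p gave 18.5 to 51.7 in HCC and 12.7 to 21.2 in non-HCC mice, again with 7 of 8 above. Ratios of other miRNAs were not counted in this way, so these counts have no background. MiR-183-5p to miR-96-5p gave log2 ratios of 3.55 to 4.81 in HCC and 3.15 to 4.15 in non-HCC mice, with 3 of 8 HCC mice above. The means of the log2 ratios were higher in HCC by 0.45 for miR-182-5p over miR-183-5p, by 0.45 for miR-183-5p over miR-96-5p and by 0.89 for miR-182-5p over miR-96-5p. With the close libraries summed these were 0.45, 0.52 and 0.97, and without HCC mice 3 and 7 they were 0.39, 0.48 and 0.87.

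Both strands had entries for the miR-182 and miR-183 hairpins. For miR-182, the 5p strand outnumbered the 3p strand 217 to 1211 times in the 4 HCC mice with a listed 3p value and 37.3 times in the 1 such non-HCC mouse. Where the 3p strand was at 0, at most 9 UMIs can be hidden, and the ratio was at least 59.0 in the other HCC and at least 61.2 in the other non-HCC mice. For miR-183 it was 23.3 to 344 with HCC (6 mice) and 26.3 to 46.5 without (3 mice). HCC mouse 4, with 3706 UMIs of miR-183-5p and 103 of miR-183-3p, had a ratio within the non-HCC range. Of the other HCC mice, 4 had listed miR-183 ratios and 1 a lower bound above the highest listed non-HCC ratio, 46.5, while the 2 non-HCC mice with miR-183-3p at 0 have no upper limit. With 10 to 30 UMIs of a 3p strand in most of these mice, the ratios carry a wide counting error, and the groups were not tested. A 3p strand is listed only from 10 UMIs, so a listed ratio cannot exceed the 5p count over 10. The non-HCC mice had at most 722 UMIs of miR-182-5p and 604 of miR-183-5p, so their listed ratios were capped low. A difference in strand use between the groups cannot be read from these ratios.

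Among HCC mice the 5p strands were also compared with each other. Over the 8 mice, Pearson's r of the log2 levels was 0.99 between miR-182-5p and miR-183-5p, 0.98 between miR-182-5p and miR-96-5p and 0.99 between miR-183-5p and miR-96-5p. These values are descriptions: all levels of a mouse share its spike-in scale, and HCC mice 3 and 7 lie apart from the other 6, which widens the range. On the TMM scale r was 0.98, 0.96 and 0.98. Spearman's rho on the spike-in scale was 0.86, 0.76 and 0.90. No value was computed without HCC mice 3 and 7, and the pooled r is not read as a relation. Over all 13 C3H mice rho for the same pairs was 0.95, 0.93 and 0.96. Outside the cluster, miR-702-3p reached 0.97 with miR-182-5p and miR-5627-3p 0.99 with miR-96-5p, so such closeness was not particular to the cluster. The ranks differed in detail, since HCC mouse 4 was second of the HCC mice for miR-182-5p and at place 5 for miR-183-5p.

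Plasma miRNA can come from blood cells and from damaged tissue, so marker miRNAs of other sources were followed in the same mice. Of 5 liver miRNAs, 4 rose in HCC (edgeR, spike-in scale), and the log2 fold changes of the list ran from 2.21 to 7.34. MiR-122-5p, the most abundant miRNA of hepatocytes, rose by 7.34 on the log2 scale (SE 1.17, edgeR adjusted p = 0.00303). The log2 of the summed liver list was 17.9 to 23.8 in HCC and 16.1 to 17.5 in non-HCC mice, and all 8 HCC mice were above every non-HCC mouse. By the mean log2 level of the list, 6 of 8 were above on the spike-in scale, where HCC mice 3 and 7 fell within the non-HCC range, and 8 of 8 on the TMM scale. The part of liver miRNA in the values of the cluster was not tested.

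On the spike-in scale, 0 of 6 red cell miRNAs were past the threshold in either direction by edgeR, DESeq2 or limma, and 0 had an unadjusted p under 0.05 by edgeR. On the TMM scale edgeR also called 0, with 4 lower at an unadjusted p under 0.05. Their log2 sum was 19.4 to 22.9 in HCC and 21.4 to 22.7 in non-HCC mice. By the mean log2 level of the red cell list, 5 of 8 HCC mice lay below every non-HCC mouse on the spike-in scale and 7 on the TMM scale. DESeq2 with its own size factors called 1 lower, and the median log2 fold change was -0.54 (edgeR, spike-in scale) and -1.11 (TMM). Of 5 platelet and leukocyte miRNAs, edgeR called 0 on the spike-in scale, with 1 lower at an unadjusted p under 0.05. On the TMM scale it called 4 lower, limma called 0 and DESeq2 called 1 (spike-in scale) or 4 lower. Their log2 sum was 16.4 to 19.01 in HCC and 17.6 to 19.8 in non-HCC mice, so 0 of 8 HCC mice lay above the non-HCC range. By the mean log2 level of this list, 5 of 8 HCC mice lay below every non-HCC mouse on the spike-in scale and 8 on the TMM scale. No marker of any of these lists was at 0 in every mouse. On both scales the median log2 fold change was below 0 for these lists (-0.69 and -1.24 for platelets and leukocytes), and every member's was above 0. The part of blood cell miRNA in the members' values was not tested.

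MiRNAs of epithelia, the miR-200 family with miR-203 and miR-205, share with the cluster an abundance in epithelial cells. Of 7, edgeR called 0 on the spike-in scale, with 1 higher at an unadjusted p under 0.05, and limma and DESeq2 on that scale called 0, while DESeq2 with its own size factors called 3 lower. Under TMM, miR-200c-3p, miR-141-3p and miR-205-5p fell, with log2 fold changes of -1.90, -1.03 and -1.61 (edgeR adjusted p = 0.00106, 0.0324 and 0.0338). MiR-200a-3p, miR-200b-3p, miR-429-3p and miR-203-3p went the other way, at 1.07, 0.46, 0.41 and 0.11, none past the threshold. Each of the 7 had the same sign on the spike-in scale, so the list was split in direction. The median of all 7 was 1.15 on the spike-in scale and 0.11 on the TMM scale, below the 3.12 and 2.38 of the cluster. Without HCC mice 3 and 7, edgeR on the spike-in scale called 1 of 7 higher.

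Whether the 5p strands followed these lists from mouse to mouse was tested in the 8 HCC mice by exact two-sided permutation of pairings, over 12 relations of 3 strands and 4 lists. By Pearson's r 6 of 12 passed a Benjamini-Hochberg adjusted p of 0.05, the 6 with the liver and epithelial lists, and by Spearman's rho 2 of 12, both of miR-96-5p. The 8 mice form separate clusters, however, with HCC mice 3 and 7 low in the 5p strands, the liver list (both at 13.30) and the epithelial list (9.84 and 9.91), so a pooled r is not read as a relation. By share of UMIs 9 of 12 passed by r, and the 3 added ones were negative, with the red cell list. Among the other 6 mice 0 of 12 relations passed by either measure. With the close libraries summed, which leaves 6 HCC samples, 5 passed by r and 0 by rho.

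In those 6 mice the largest r on the spike-in scale was of miR-96-5p with the epithelial list (r = 0.88, exact permutation p = 0.0194, adjusted p = 0.142; rho = 0.77, p = 0.103, adjusted p = 0.617). That with the liver list was next by r and larger by rho (r = 0.81, exact permutation p = 0.0236, adjusted p = 0.142; rho = 0.83, p = 0.0583, adjusted p = 0.617). MiR-182-5p gave r = 0.45 with the liver list and 0.59 with the epithelial list in the 6 mice, and miR-183-5p gave 0.53 and 0.66. On the TMM scale the r with the liver list was 0.40 for miR-96-5p, 0.17 for miR-183-5p and -0.07 for miR-182-5p. On that scale the largest r in size was -0.94, of miR-183-5p with the red cell list (exact permutation p = 0.0292, adjusted p = 0.192; rho = -0.77, p = 0.103, adjusted p = 0.58). The 5 non-HCC mice are too few for a correlation.

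**Figure D4:**
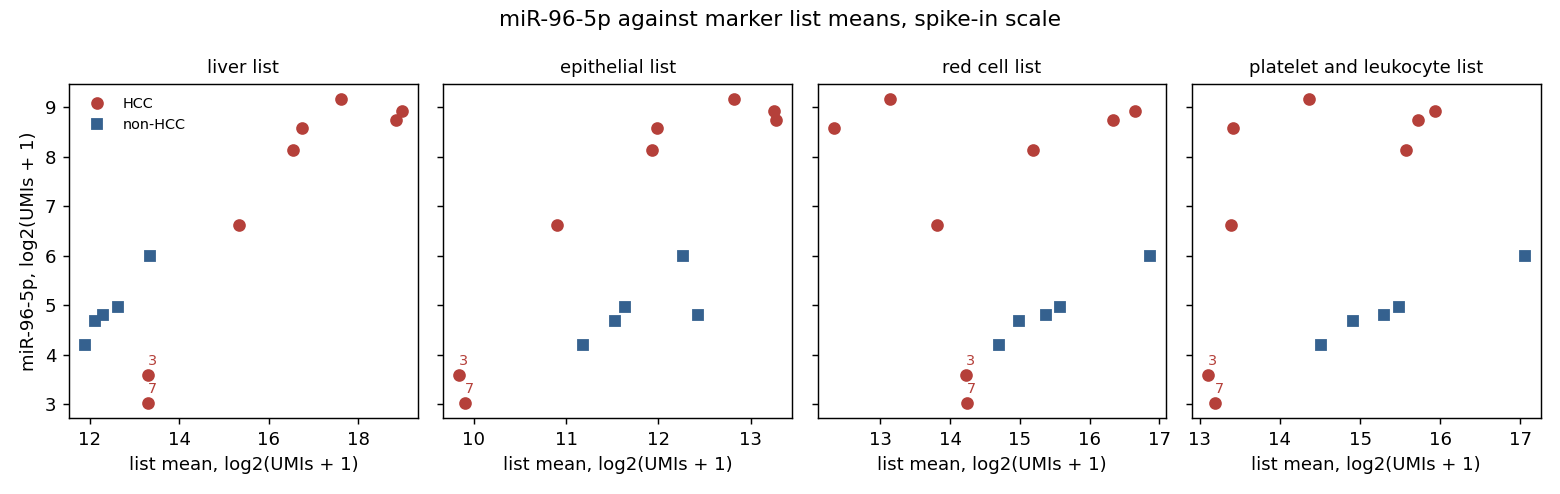
Each panel plots the log2(UMIs + 1) level of miR-96-5p (vertical axis) against the mean log2 level of 1 marker list (horizontal axis), both on the spike-in scale, with circles for HCC and squares for non-HCC mice. HCC mice 3 and 7, marked by their numbers, are the lowest HCC mice in the liver (both 13.30) and epithelial (9.84 and 9.91) lists. They lie apart from the other 6 HCC mice, and in the liver list they fall within the non-HCC range.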

How the data were processed

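The authors extracted RNA from mouse plasma after adding UniSP2 and UniSP4, built QIAseq miRNA libraries, aligned reads to GRCm38, annotated them by miRBase 20 and deposited UMI counts. The submitters' processing notes name FastQC and Bowtie2 without versions. Per the study's methods, platelets were removed by spinning and plasma was screened for hemolysis. The deposited UMI counts are not normalized, and 30.6% of entries are 0. The 53 columns of the F2 table matched no label and were not used.

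The spike-in scale follows the study's normalization. Counts were tested with edgeR 4.0.16 (R 4.3.3, quasi-likelihood, scale from the mean of both spike-ins, Benjamini-Hochberg) on the 1452 miRNAs that reached 5 UMIs in 5 or more mice. The code was tested on simulated counts. Alternatives were TMM, each spike-in alone, DESeq2 1.42.0, limma 3.58.1, no filter, 20 UMIs, a pseudocount of 10, a replicate block and leaving out each mouse. Leaving out HCC mice 3 and 7 and summing close libraries were chosen after seeing the data. Replicates are separately labelled mice. Sequences came from RefSeq (GRCm38) by miRNA name, and all 6 strands matched. Gene positions came from GENCODE M21.

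The members and lists were chosen with earlier results of these data known. The text names the members, miRNAs sharing a seed, members of the red cell, liver, platelet and leukocyte, muscle, epithelial and neural lists, and the 5 miRNAs of highest Spearman rho with each 5p strand.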

Additional observations from a re-analysis of the deposited data

Results flagged for a closer look

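In 28 groups of values searched, 3 mice stood apart from their group, where chance alone gives about 1 in 20 groups. HCC mouse 4 had a log2 ratio of miR-182-5p to miR-183-5p of 1.64, and the next highest HCC mouse was at 1.01. Non-HCC mouse 3 had a log2 level of miR-182-3p of 3.29, from 12 UMIs, while the other 4 non-HCC mice were listed at 0 and the nearest was at 0.39. That gap mostly reflects the lowest listed entry of 10 UMIs, so the chance rate does not apply to it. The muscle list averaged 10.83 (log2 level) in non-HCC mouse 2, and the next highest non-HCC mouse was at 9.65.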

How the results depend on the processing

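Levels, ratios and fold changes of the members kept their direction under every alternative in which the member was tested. The number of miRNAs called higher, 109, was 173 by DESeq2 (own size factors), 181 by DESeq2 (spike-in size factors), 44 by limma and 256 without HCC mice 3 and 7, and ran from 44 to 157 when 1 mouse was left out, with 65 without HCC mouse 2, and 44, 47, 47 and 53 without non-HCC mice 1, 2, 3 and 4. The number called lower by edgeR on the spike-in scale, 0 (3 at an unadjusted p under 0.05), was 32 by TMM, 1 with UniSP4 alone, 49 by DESeq2 (own size factors) and 2 by DESeq2 (spike-in size factors). Members called were 0 by limma and 1 to 3 with 1 mouse left out, and miR-96-5p was not called without HCC mouse 2 or 5 or non-HCC mouse 4. Replicate numbers were shared by 5 mice of each group. The deviations of same-numbered mice from their group means correlated weakly, above 0.1 in 3 of 5 cases (0.11, 0.13 and 0.21) and at 0.03 and -0.05 otherwise. Only 1 of 5 correlated best with its own number, so the numbers were not read as pairs. With the replicate block 145 miRNAs and 3 members were called higher.

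Relations past the threshold by r, 6, ranged from 2 (without HCC mouse 8) to 6 with 1 mouse left out, and were 5 by TMM, 9 by share of UMIs and 0 without HCC mice 3 and 7. By rho, 2, they were 4 by TMM, 5 by share of UMIs, 0 without mice 3 and 7, 0 with the close libraries summed, and 0 to 3 with 1 mouse left out, 3 without HCC mouse 6 and 0 without HCC mouse 1, 3, 4, 7 or 8. These counts did not hold the same relations. By r under TMM, no relation of miR-182-5p passed, and a negative one of miR-183-5p with the red cell list did. By rho no liver relation passed under TMM or by share. Negative relations with the red cell list passed there, of miR-183-5p on both and of miR-182-5p by share. The following r over all 8 HCC mice, which include the 2 low ones, changed sign. With the red cell list r was near 0 on the spike-in scale, 0.068 for miR-182-5p, 0.027 for miR-183-5p and 0.152 for miR-96-5p. For miR-182-5p it was -0.79 by TMM, -0.81 by share and -0.055 to 0.268 with 1 mouse left out. For miR-183-5p it was -0.82, -0.87 and -0.12 to 0.244. For miR-96-5p it was -0.70, -0.80 and -0.029 to 0.372. With the platelet and leukocyte list r was 0.66, 0.61 and 0.69 on the spike-in scale, -0.22, -0.34 and -0.21 by TMM for the 3 strands in that order, and -0.10 and -0.066 by share for miR-183-5p and miR-96-5p. The cause was not tested.

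The 3p strands lie near the lowest listed entry of 10 UMIs, which limits their fold changes and strand ratios. They were not tested under the filter of 20 UMIs, which they did not pass. MiR-182-3p also dropped out of the fits without HCC mouse 1, 4, 6 or 8 or non-HCC mouse 3. The alternative planned for the F2 columns was not run.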

Other observations

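The sensory and neuroendocrine side of the cluster was followed through 9 neural miRNAs, among them miR-124-3p and miR-9-5p of neurons and miR-375-3p of endocrine cells. By edgeR on the spike-in scale 0 of 9 were past the threshold, with 0 at an unadjusted p under 0.05, and DESeq2 and limma also called 0. The median log2 fold change was -0.07, below the 0.78 of all tested miRNAs, and that of the 5 cluster members was 3.12. On the TMM scale edgeR also called 0 of 9, with 3 lower at an unadjusted p under 0.05, and the median was -0.63. By the mean log2 level of the neural list, 4 of 8 HCC mice lay below every non-HCC mouse on the spike-in scale and 8 on the TMM scale. Of 5 muscle miRNAs edgeR called 0, with 1 higher at an unadjusted p under 0.05, limma called 0 and DESeq2 called 1 higher. Without HCC mice 3 and 7, edgeR called 1 muscle miRNA higher.

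The miRNAs whose log2 levels most resembled the 5p strands over the 13 mice were sought among 696 miRNAs listed above 0 in every mouse. For miR-182-5p they were miR-702-3p (Spearman's rho 0.97), miR-125a-3p (0.95), miR-664-3p (0.95), miR-1938 and miR-24-3p (both 0.945). For miR-183-5p they were miR-671-3p, miR-99b-3p, miR-146b-5p, miR-125a-3p and miR-125a-5p, at 0.945 to 0.956. For miR-96-5p they were miR-5627-3p (0.99), miR-763, miR-99b-3p, miR-146b-5p and miR-574-5p (each 0.98). All levels of a mouse share its spike-in scale and its group. On the TMM scale 0 of the 5 nearest miRNAs of miR-182-5p, 0 of those of miR-183-5p and 2 of those of miR-96-5p, miR-146b-5p and miR-574-5p, were again among the 5 nearest, so the neighbours of miR-182-5p and miR-183-5p depended on the scale.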
